A study of Mus musculus with 6 samples.

Results

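Collagen genes were followed in the jejunum of 6 irradiated mice. On the array they were every non-control probe whose gene name in the files has the form of a collagen chain (Col, a number, a, a number), which gave 63 probes of 41 genes, on 72 spots, among 55681 non-control probes on 59305 spots. All 6 animals were male C57BL/6J mice that received 9 Gy of radiation, and the jejunum was taken 6 h afterwards. The 3 vehicle mice were given the vehicle into the stomach 0.5 h before radiation, and the 3 VND3207 mice were given 100 mg/kg of VND3207, a compound known by its code name, in an equal volume at the same time. The comparison therefore asks what the compound changed in irradiated tissue, and no unirradiated mouse was among the groups used here. Each mouse gave 1 array with 1 colour channel (Cy3), so n = 3 in each group throughout.

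Collagens are secreted proteins of 3 chains wound into a triple helix, in which glycine recurs at regular steps along each chain. Fibrillar collagens such as types I, III and V assemble into the fibres of the submucosa and muscle layers. Type IV forms the network of the basement membrane under the epithelium and around vessels and smooth muscle, with types XV and XVIII attached to that zone. The remaining families sit on fibril surfaces, form beaded filaments (type VI), short-chain networks, anchoring fibrils or transmembrane proteins. In the gut wall most fibrillar chains are made by fibroblasts and smooth muscle cells, while type IV chains also come from endothelium, epithelium and glia.

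Values below are log2 of the processed signal minus the 75th percentile of the same array, so that 0 marks the 75th percentile and 1 unit is a doubling of signal. Levels of different probes are not comparable, since each probe has its own binding strength. Of the 63 probes, 41 (32 genes) were kept for testing because the scanner software marked them as well above background on 3 or more of the 6 arrays, and 34 were so marked on all 6. Another 18 probes were not above background on any array, and 9 genes had no kept probe: Col2a1, Col11a1, Col24a1, Col6a6, Col9a3, Col10a1, Col13a1, Col17a1 and Col28a1. By group, 8 of 11 fibrillar probes, 11 of 14 basement membrane probes and 22 of 38 probes of other collagens were kept. One kept probe, of Col25a1, passed only through the vehicle arrays.

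The arrays differed in ways that touch these results. The share of spots well above background lay between 66.7% and 70.0% in vehicle mice and between 58.8% and 61.4% in VND3207 mice, and no spot was saturated. Vehicle arrays lay on 1 slide and VND3207 arrays on another, each with its own scan, so slide, scan and treatment cannot be told apart. Of all kept probes, 14.4% were lower in VND3207 mice and 0.906% higher at an adjusted p under 0.05 (limma, Benjamini-Hochberg over 36091 probes). Among kept probes with a mean under the 75th percentile, called dimmer below, 20.2% were lower and 1.08% higher, and among brighter ones 4.28% were lower and 0.608% higher.

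VND3207 mouse 3 stood apart from the other 5. All 8 smooth muscle markers were lower in it than the mean of the other VND3207 mice, by a median of -2.30 log2 units (range -2.46 to -1.86). Actg2, the enteric form of gamma actin, measured 6.08, 5.70 and 6.12 in vehicle mice 1 to 3 and 5.98, 5.88 and 3.47 in VND3207 mice 1 to 3. Summed over the 8 markers, the log2 level was 27.1 to 30.0 in the vehicle mice and 29.0, 29.2 and 11.4 in VND3207 mice 1 to 3, and all 8 were well above background on every array. All 4 mesothelium markers were also lower in it (median gap -3.76), as were 3 of 4 pericyte markers (median -1.19) and 6 of 6 glial and neuronal markers (median -0.50). The 9 fibroblast markers had a median gap of -0.28, and the brighter collagen probes one of -0.36, against 0.06 for all kept probes. In such whole-tissue samples fewer cells of a type and less RNA per cell cannot be told apart. The collagen probes called lower were the same 6 without this mouse, and the value without it is given below for a number of the probes that did not pass.

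**Figure D1:**
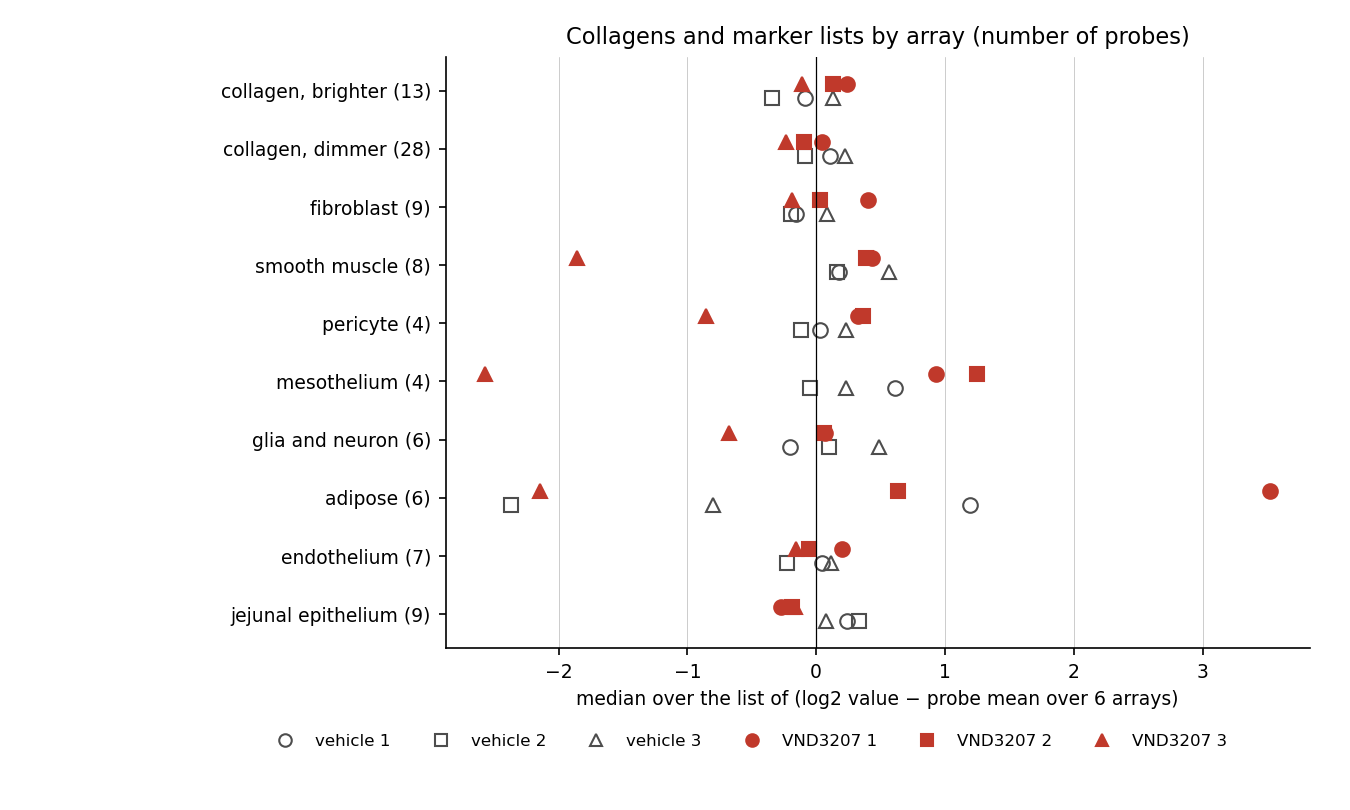
Median over each list of the log2 value minus the probe's mean over the 6 arrays, for the brighter and dimmer collagen probes and for lists of cell type markers, with 1 point for each mouse and the number of probes in brackets. VND3207 mouse 3 lies at -1.85 for smooth muscle and -2.57 for mesothelium, below the other 5 mice, while the brighter collagens spread from -0.34 to 0.24 over both groups.

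Adipose markers varied widely within both groups. Adipoq, an adipocyte hormone gene, measured 0.06, -4.75 and -2.03 in the vehicle mice and 2.67, 0.28 and -3.96 in the VND3207 mice, and 4 of the 6 markers were well above background on all arrays. Summed log2 levels of the 6 markers ran from -14.4 to 3.30 in vehicle mice and from -12.7 to 13.0 in VND3207 mice. Jejunal epithelium markers were all well above background on every array, and 4 of 9 (Fabp1, Fabp2, Krt8 and Krt20) were lower at the threshold. Over the brightest probe of every gene name 13.9% were lower, and over all brighter probes 4.28%. Over 14 settings of normalization, variance model and samples Fabp1 passed in 12, Fabp2 in 6, and Krt8 and Krt20 in 5 each. The highest adjusted p of limma was 0.516 for Fabp2, 0.812 for Krt8 and 0.994 for Krt20. The summed level of the 9 markers was 69.7 to 71.5 in vehicle mice and 66.5 to 67.6 in VND3207 mice. Of the other lists, 2 of 7 endothelium markers (Kdr and Pecam1) were lower. In that list 4 of 7 differences were above 0, among them Cdh5 (0.35) and Plvap (0.39), neither past the threshold. Of 5 exocrine pancreas markers 3 were kept, and 2 were lower. These were Cel, which passed in 6 of the 14 settings, and Cpa1, which passed in 3 and was kept through the vehicle arrays alone. Pdgfrb was higher among 4 pericyte markers, and was the only 1 of the 4 above 0. None of the fibroblast, smooth muscle, mesothelium or adipose markers passed the test of limma (at an unadjusted p under 0.05, 1 of them, Pdgfra, was higher).

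No collagen probe was higher in VND3207 mice at the threshold (limma, with 1 at an unadjusted p under 0.05, the brighter Col6a4 probe), and 6 of the 41 kept probes (14.6%) were lower, beside the 14.4% of all kept probes given above. The 6 lower probes belonged to Col4a4, Col8a2, Col9a1, Col15a1, Col19a1 and Col25a1, and each was a dimmer probe. They made up 21.4% of the 28 dimmer collagen probes, beside 20.2% of all dimmer probes. These shares count probes kept through 1 group alone, among them that of Col25a1. Without such probes 5 of 40 collagen probes and 3527 of 33647 probes in all were lower. None of the 13 brighter probes (of Col1a1, Col1a2, Col3a1, Col4a1, Col4a2, Col5a1, Col6a1, Col6a2, Col6a4, Col14a1, Col16a1 and Col18a1) passed the test. The median difference over the 41 probes was 0.00, beside -0.06 over all kept probes. It was 0.09 in the fibrillar group, -0.01 in the basement membrane group and -0.05 among the others. These medians moved with single mice: the fibrillar one was -0.04 without vehicle mouse 2 and 0.28 without vehicle mouse 3, and over each mouse left out the basement membrane one ran from -0.07 to 0.02 and the last from -0.13 to 0.08.

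**Figure D2:**
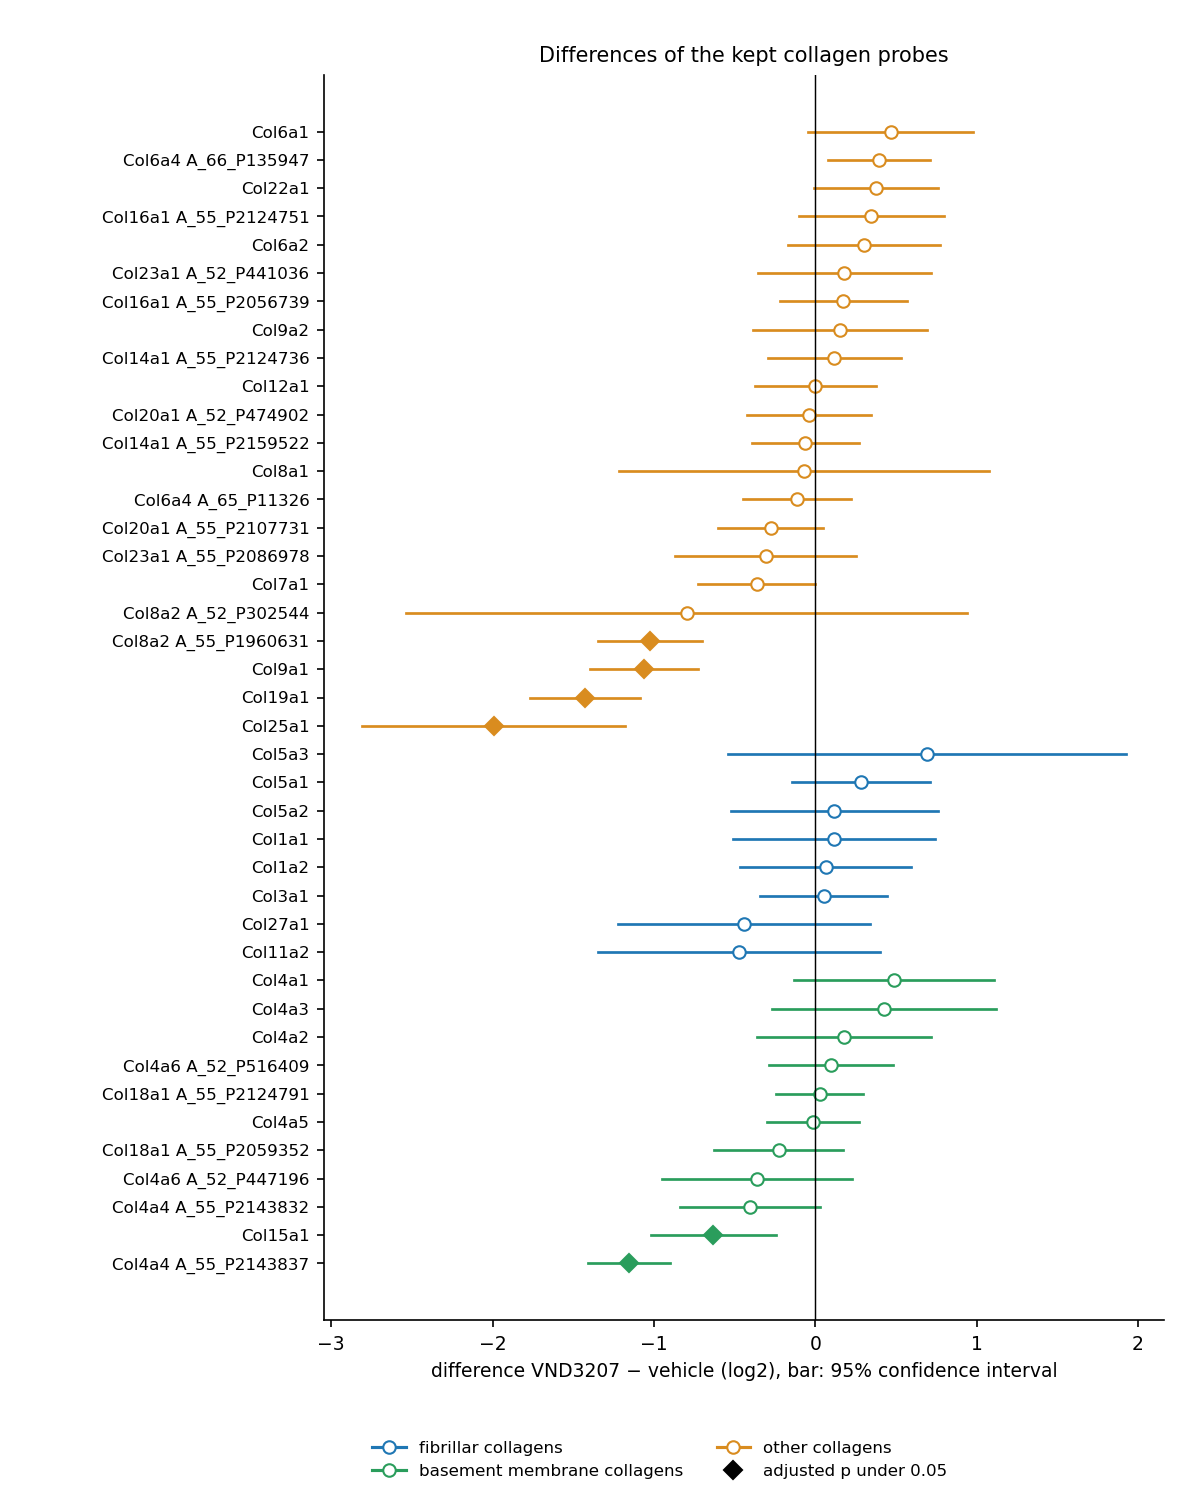
Difference between VND3207 and vehicle mice in log2 units for each of the 41 kept collagen probes, ordered within the 3 groups, with bars for the 95% confidence interval of limma. Filled diamonds mark the 6 probes with an adjusted p under 0.05, all below 0, and the open circles of the major fibrillar chains lie between 0.05 and 0.28.

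**Figure D3:**
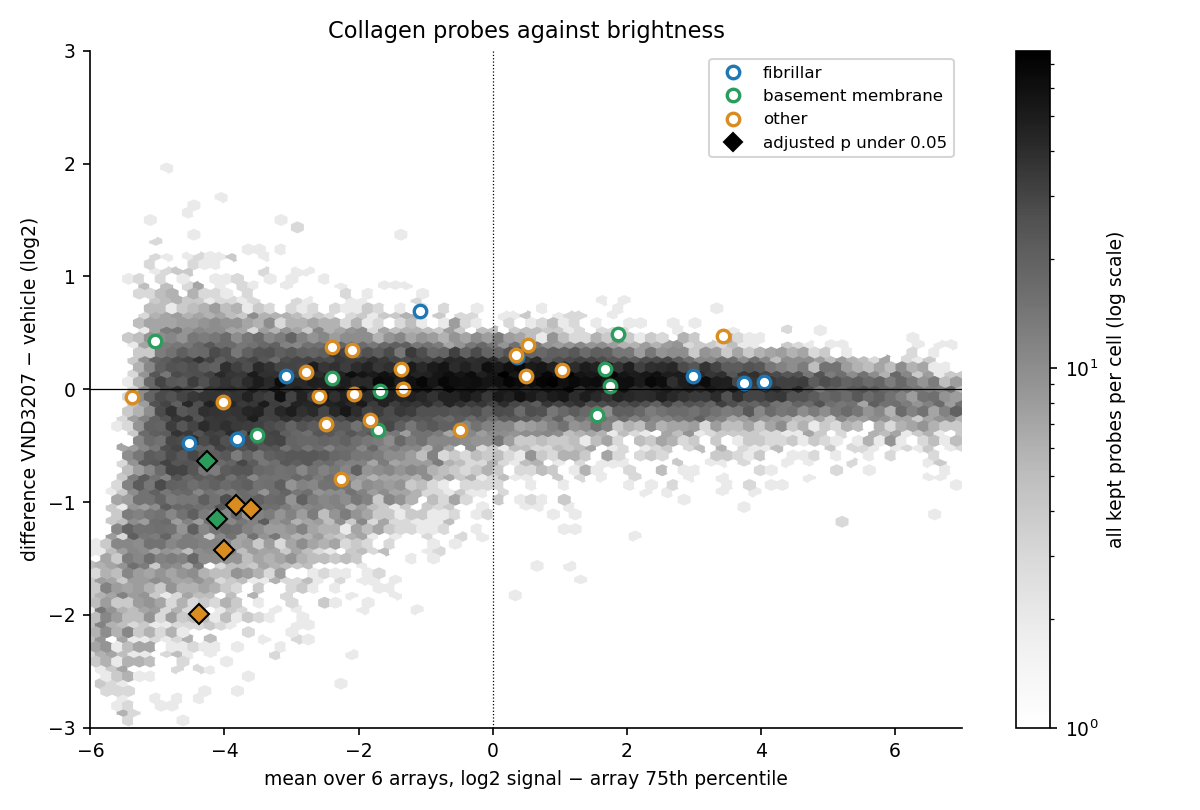
Difference between VND3207 and vehicle mice (log2) against the mean over the 6 arrays (log2 signal minus the array's 75th percentile), with all kept probes as grey cells shaded by their number (661 of 36091 lie outside the axes) and the collagen probes as coloured symbols. The 6 called probes lie left of 0, where the grey cloud extends downwards, and the 13 collagen probes right of 0 lie between -0.23 and 0.49.

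Fibrillar chains come first. Col1a1 and Col1a2 encode the chains of type I collagen, the main fibre protein of the gut wall. Col1a1 (probe on mm9 chr11:94813115-94813174, plus strand) measured 2.76, 2.58 and 3.46 in vehicle mice and 3.23, 3.12 and 2.80 in VND3207 mice. Its groups overlapped, and the difference was 0.12 with a 95% interval of -0.51 to 0.74 (adjusted p = 0.827). Col1a2 (chr6:4490619-4490678, plus strand) measured 3.90, 3.72 and 4.44 against 4.24, 4.18 and 3.84, a difference of 0.06 (interval -0.46 to 0.59, adjusted p = 0.889). In both genes vehicle mouse 3 was the highest animal and vehicle mouse 2 the lowest, and without vehicle mouse 2 the differences were -0.06 for Col1a1 and -0.08 for Col1a2.

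Col3a1, the single chain of type III collagen, measured 3.66, 3.58 and 3.91 in vehicle mice and 3.93, 3.88 and 3.50 in VND3207 mice (chr1:45405589-45405648, plus strand). The difference was 0.05 with an interval of -0.34 to 0.45 (adjusted p = 0.88). Here VND3207 mouse 3 was the lowest animal and the other VND3207 mice lay beside vehicle mouse 3. Without VND3207 mouse 3 the difference was 0.19 for Col3a1, 0.24 for Col1a1 and 0.19 for Col1a2, with adjusted p from 0.480 to 0.670. For none of these chains was a change detectable at this number of mice, and the intervals leave room for differences of up to about 0.74 in the case of Col1a1.

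Type V chains take part in starting type I fibrils. Col5a1 (chr2:27892892-27892951, plus strand) measured 0.15, -0.02 and 0.54 in vehicle mice and 0.68, 0.43 and 0.40 in VND3207 mice, a difference of 0.28 (interval -0.14 to 0.71, adjusted p = 0.38). Col5a2, a dimmer probe, differed by 0.12 (adjusted p = 0.827), or by 0.38 without VND3207 mouse 3 (adjusted p = 0.281). Col5a3 (chr9:20574592-20574651, minus strand) had the largest fibrillar difference, 0.69, and the widest fibrillar interval, -0.54 to 1.93 (adjusted p = 0.461).

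The Col5a3 values were -1.13, -2.01 and -1.14 in vehicle mice and 0.28, -0.86 and -1.62 in VND3207 mice, so that the groups overlapped and VND3207 mouse 1 alone was above 0. VND3207 mouse 1 was also highest, and vehicle mouse 2 and VND3207 mouse 3 lowest, for Adipoq, and the part of adipose tissue in the Col5a3 values was not tested. Leaving out 1 mouse moved the Col5a3 difference between 0.19 (without VND3207 mouse 1) and 1.14 (without VND3207 mouse 3), where the adjusted p was 0.169. Col27a1 (chr4:62995485-62995544, plus strand), a fibrillar chain of cartilage and other tissues, measured -3.90, -4.05 and -2.84 against -3.94, -4.01 and -4.17. Its difference of -0.44 (interval -1.23 to 0.34, adjusted p = 0.46) rested on vehicle mouse 3, without which it was -0.06.

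The remaining kept fibrillar probe, of Col11a2, differed by -0.47 (adjusted p = 0.478), or -0.73 without VND3207 mouse 3, and was well above background on 1 VND3207 array. Col2a1, Col11a1 and Col24a1, of which the first is the main chain of cartilage, were not kept. Over the 8 kept fibrillar probes 6 differences were above 0 and none passed the test of limma, or an unadjusted p under 0.05, where 42.3% of all kept probes were above 0.

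**Figure D4:**
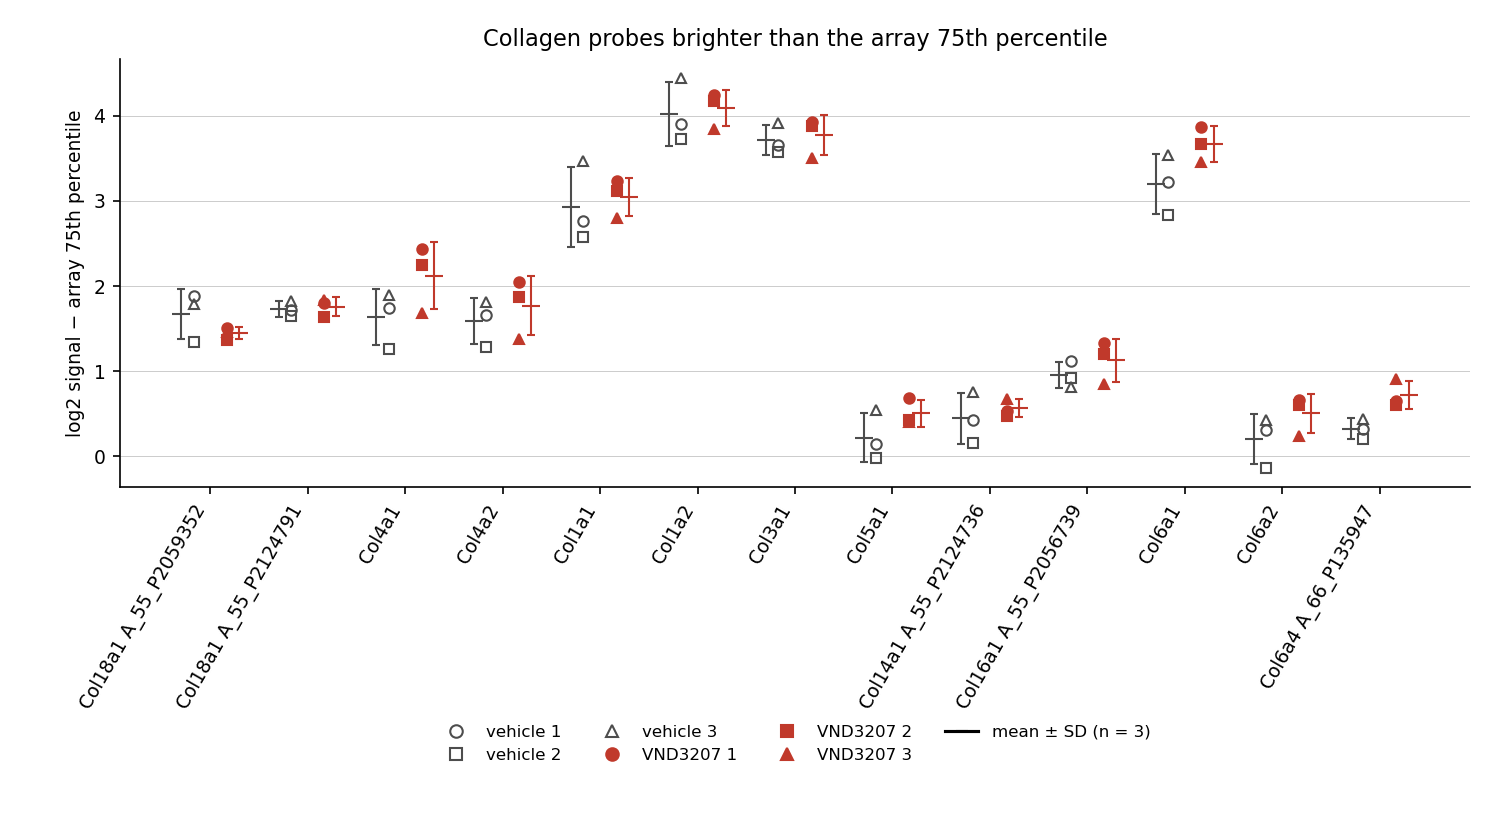
Log2 signal minus the array's 75th percentile for the 13 brighter collagen probes in each mouse, with bars for the mean ± SD of each group (n = 3), for comparison within a probe only. The groups overlap in every probe but Col6a4, and among vehicle mice the square of mouse 2 is the lowest symbol in 12 of the 13.

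The brighter probes kept much the same order of animals. In 12 of the 13, vehicle mouse 2 was the lowest of its group, and in 11 vehicle mouse 3 was the highest. Among VND3207 mice, mouse 3 was the lowest in 9 and mouse 1 the highest in 10. The full order, vehicle 2, 1, 3 and VND3207 3, 2, 1 from low to high, held in 8 of 13 probes (Col1a1, Col1a2, Col3a1, Col4a1, Col4a2, Col5a1, Col6a1 and Col6a2), beside 2.09% of all brighter probes, a pattern chosen after its values were seen and given without a test. Differences above 0 were found in 12 of 13 brighter collagen probes, beside 53.2% of all brighter probes, with a median of 0.17 beside 0.02. That median was 0.03 without vehicle mouse 2, 0.07 without VND3207 mouse 1, 0.29 without vehicle mouse 3 and 0.30 without VND3207 mouse 3. The count fell to 7 of 13 without vehicle mouse 2 and was 10 without VND3207 mouse 1, 11 of 13 without VND3207 mouse 3, 11 with quantile normalization and 9 after the correction described next.

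An alternative removed from each array the smooth trends with row, column, brightness and GC content of the probes. It left 6.12% of all kept probes lower and 2.68% higher. Under it the median over the 13 brighter collagen probes was 0.20, with a range of -0.44 to 0.59, and again none passed the test (lowest adjusted p = 0.0545, for Col6a4).

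The 250 bases before the starts of Col1a2 and Col3a1, which were among the 8 genes with the full order of animals, are shown. Promoters of 33 of the 41 genes matched by symbol (36 promoters, RefSeq, GRCm38.p6), and Col1a1 was not among them. Capitals mark the motif CCAAT, the motif GGGCGG and the motif TATAAA, searched on both strands, with no overlap between them. The Col1a2 window (chr6:4505368-4505617, plus strand) holds 1 CCAAT and 2 GGGCGG, and the Col3a1 window (chr1:45311288-45311537, plus strand) holds 1 TATAAA.
Col1a2: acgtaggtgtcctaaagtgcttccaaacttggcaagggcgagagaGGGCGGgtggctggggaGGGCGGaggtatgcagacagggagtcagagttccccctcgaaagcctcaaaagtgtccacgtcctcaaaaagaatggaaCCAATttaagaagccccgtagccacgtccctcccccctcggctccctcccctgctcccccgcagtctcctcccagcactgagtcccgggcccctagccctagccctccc
Col3a1: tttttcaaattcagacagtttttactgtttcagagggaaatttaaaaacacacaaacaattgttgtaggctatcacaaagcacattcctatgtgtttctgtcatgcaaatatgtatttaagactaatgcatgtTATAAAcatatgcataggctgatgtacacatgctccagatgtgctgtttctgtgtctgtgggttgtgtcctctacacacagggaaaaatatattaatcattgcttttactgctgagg
The windows have none of these motifs in common, and a match describes the letters alone. Over the 36 collagen windows GGGCGG occurred in 58.3%, beside 32.7% of all 32851 windows of that length, CCAAT in 36.1% beside 33.8% and TATAAA in 13.9% beside 12.4%.

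Basement membrane chains follow. Col4a1 and Col4a2 form the common type IV network, and their genes start 21 bases apart on opposite strands (RefSeq, GRCm38.p6). Col4a1 (mm9 chr8:11199009-11199068, minus strand) measured 1.75, 1.26 and 1.89 in vehicle mice and 2.44, 2.24 and 1.68 in VND3207 mice. VND3207 mice 1 and 2 lay above all vehicle mice and mouse 3 among them. The difference was 0.49, the largest of the brighter probes, with an interval of -0.13 to 1.11 (adjusted p = 0.294).

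Without VND3207 mouse 3 the Col4a1 difference was 0.71 (adjusted p = 0.102). The Col4a1 probe was printed on 10 spots, whose SD within an array was at most 0.08, while the SD between mice was 0.33 in the vehicle group and 0.40 in the VND3207 group. Col4a2 (chr8:11448840-11448899, plus strand) measured 1.66, 1.29 and 1.81 against 2.05, 1.87 and 1.38, in the same order of animals as Col4a1. Its difference was 0.18 (interval -0.36 to 0.72, adjusted p = 0.68), or 0.37 without VND3207 mouse 3 (adjusted p = 0.286).

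Col4a3, Col4a4 and Col4a5 belong to the type IV network known from the kidney glomerulus. Col4a5 also belongs, with Col4a6, to that of other epithelia and smooth muscle. Col4a3, near background, differed by 0.42 (adjusted p = 0.42), and Col4a5 by -0.01 (interval -0.30 to 0.27, adjusted p = 0.957). The 2 kept Col4a6 probes differed by -0.36 (chrX:137601433-137601491, minus strand, adjusted p = 0.418) and 0.10 (adjusted p = 0.752). In the first, vehicle mouse 1 stood above the other 5 mice, which measured -2.08 to -1.76, and without it the difference was -0.10.

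Col4a4 was the type IV chain with a called probe. The probe at chr1:82515563-82515622 (minus strand) measured -3.59, -3.46 and -3.58 in vehicle mice and -4.65, -4.80 and -4.62 in VND3207 mice, groups that did not overlap. It fell by 1.15 (SE 0.10, adjusted p = 0.00217) and was well above background on 1 of the 3 VND3207 arrays. A second kept probe of the gene, at chr1:82447879-82447938, measured -3.12, -3.17 and -3.67 against -3.55, -3.77 and -3.85, with overlapping groups and a difference of -0.40 (adjusted p = 0.22). After the correction the first differed by -0.30 (adjusted p = 0.145), and over 14 settings of normalization, variance model and samples its adjusted p ran from 0.00162 to 0.145 and it passed in 12.

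Types XV and XVIII carry fragments that, once released, are known to act on vessels. Col18a1 had 2 brighter probes. At chr10:76514926-76514985 (minus strand) it measured 1.89, 1.34 and 1.79 in vehicle mice and 1.51, 1.37 and 1.46 in VND3207 mice, a difference of -0.23 (interval -0.63 to 0.18, adjusted p = 0.459), the only one of the 13 below 0. At chr10:76515790-76515849 the difference was 0.03 (interval -0.24 to 0.30, adjusted p = 0.905).

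Col15a1 had 1 kept probe, at chr4:47283786-47283845 (plus strand), with values of -4.11, -3.69 and -4.04 against -4.66, -4.69 and -4.39. The groups did not overlap and the level fell by 0.63 (SE 0.16, adjusted p = 0.0462), close to the threshold. It passed in 3 of the 14 settings (adjusted p 0.025 to 0.986), was lost on leaving out any mouse but VND3207 mouse 3, and differed by -0.00 after the correction. Over the 11 kept basement membrane probes, 5 differences were above 0 and 2 (18.2%) were lower at the threshold, beside 14.4% of all kept probes.

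Among the other collagens, type VI forms beaded filaments between fibres and cells. Col6a1 (chr10:76171538-76171597, minus strand) measured 3.22, 2.83 and 3.54 in vehicle mice and 3.87, 3.67 and 3.45 in VND3207 mice. Only vehicle mouse 3 reached into the VND3207 range, and the difference was 0.47 (interval -0.04 to 0.98, adjusted p = 0.224). Col6a2 (chr10:76058931-76058990, minus strand) measured 0.31, -0.13 and 0.43 against 0.67, 0.60 and 0.24, a difference of 0.30 (interval -0.17 to 0.77, adjusted p = 0.396).

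Col6a4, a further type VI chain, was the single brighter gene whose groups did not overlap. Its probe at chr9:105893016-105893075 (minus strand) measured 0.32, 0.20 and 0.44 in vehicle mice and 0.65, 0.60 and 0.91 in VND3207 mice. The difference was 0.40 (SE 0.13, interval 0.08 to 0.71), with an adjusted p of 0.105, and among all brighter probes 13.3% had every VND3207 mouse above every vehicle mouse. The dimmer Col6a4 probe differed by -0.11 (adjusted p = 0.67), by 0.23 with quantile normalization and by 0.36 after the correction, so that its direction depended on the setting. Col6a1, Col6a2 and the brighter Col6a4 probe kept positive differences in all 14 settings, of 0.14 to 0.64 in all.

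Fibril-associated collagens sit on the surface of fibres. Col14a1 measured 0.42, 0.16 and 0.75 in vehicle mice and 0.54, 0.47 and 0.68 in VND3207 mice at its brighter probe (chr15:55352264-55352323, plus strand), a difference of 0.12 (interval -0.29 to 0.53, adjusted p = 0.724). Col16a1 measured 1.12, 0.92 and 0.82 against 1.33, 1.20 and 0.85 (chr4:129776333-129776392, plus strand), a difference of 0.17 (interval -0.22 to 0.57, adjusted p = 0.571). The groups overlapped in both, and without VND3207 mouse 3 the difference was 0.06 for Col14a1 and 0.31 for Col16a1 (adjusted p = 0.238). Col12a1, of the same family, differed by 0.00 (interval -0.37 to 0.38), and Col9a2, Col20a1, Col22a1 and the dimmer probes of Col14a1 and Col16a1 differed by -0.28 to 0.38 without passing the test.

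Col19a1 and Col9a1, fibril-associated chains with neighbouring probes on chromosome 1, were the members that passed in all 14 settings. Col19a1 (chr1:24286609-24286668, minus strand) measured -3.44, -3.21 and -3.22 in vehicle mice and -4.52, -4.72 and -4.91 in VND3207 mice. It fell by 1.43 (SE 0.14, adjusted p = 0.00258) and was well above background on 1 VND3207 array. With the filter on all 6 arrays this probe was not tested. The array annotation assigns it to another transcript record than the gene's other probe. After the correction the difference was -0.88 (adjusted p = 0.0167). Its size depended on the setting, and over the 14 settings it ran from -1.52 to -0.46.

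Col9a1 (chr1:24201545-24201604, plus strand) measured -3.07, -3.08 and -3.06 in vehicle mice and -4.09, -4.37 and -3.93 in VND3207 mice, and was well above background on all 6 arrays. It fell by 1.06 (SE 0.14, adjusted p = 0.00496), and after the correction the difference was -0.57 (adjusted p = 0.0413). Over the 14 settings the Col9a1 difference ran from -1.16 to -0.44. In neither gene did the groups overlap. The other probe of each gene was not above background on any array, so both calls rest on a single probe, and these probes lie 85004 bases apart. Type IX collagen is known from cartilage, and of 4 cartilage and bone markers Acan and Bglap were well above background on all arrays, Sp7 was lower in VND3207 mice (-1.71, adjusted p = 0.00478) and Comp was not kept. Their part in the Col9a1 result was not tested.

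**Figure D5:**
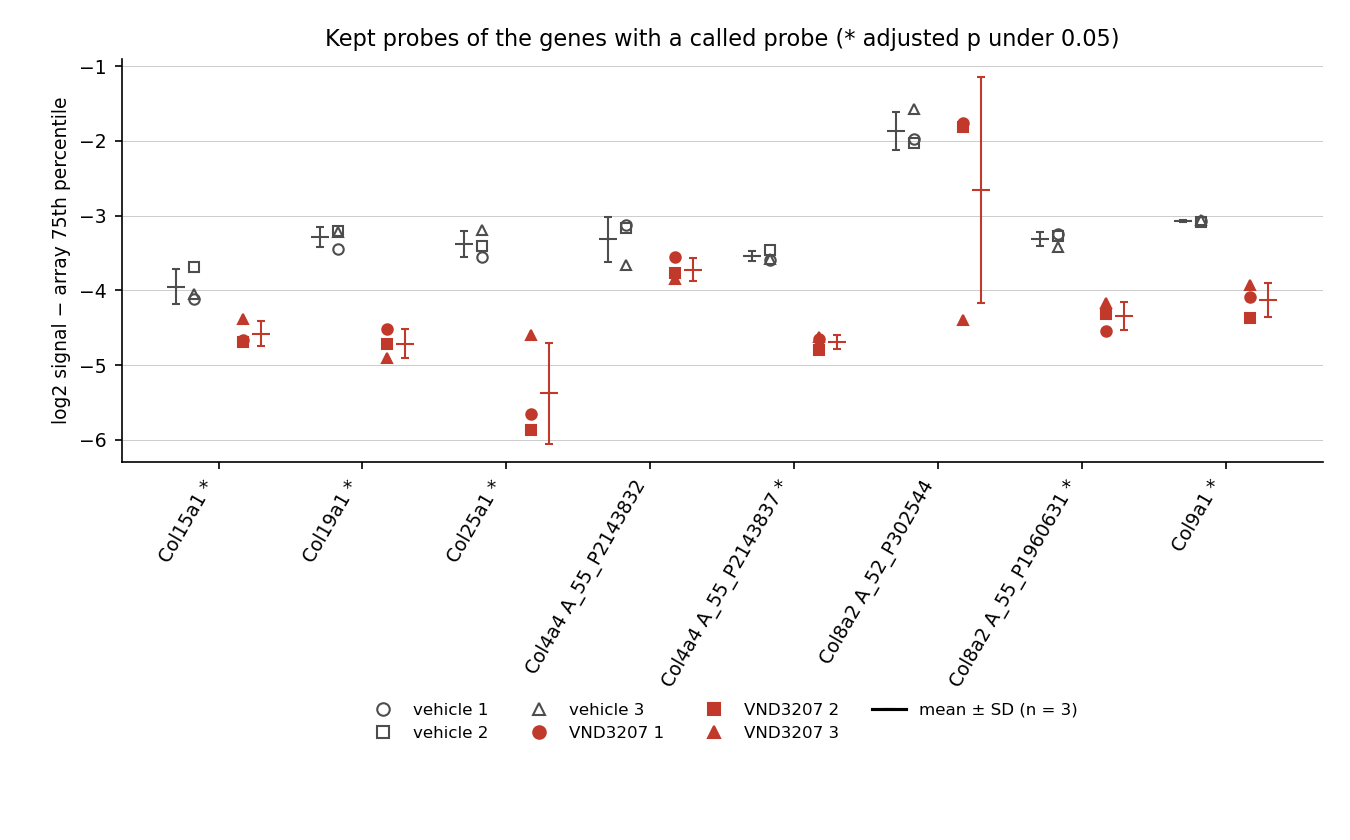
Log2 signal minus the array's 75th percentile in each mouse for the kept probes of the 6 genes with a called probe, marked by an asterisk, with bars for the mean ± SD (n = 3). The groups are apart in the 6 marked probes and overlap in the second probes of Col4a4 and Col8a2, where VND3207 mouse 3 lies at -4.40 for Col8a2.

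Type VIII forms short-chain networks in vessel walls. Col8a2 had a called probe at chr4:125989478-125989537 (plus strand), with values of -3.25, -3.28 and -3.42 in vehicle mice and -4.54, -4.32 and -4.16 in VND3207 mice. It fell by 1.02 (SE 0.13, adjusted p = 0.00499), and after the correction the difference was -0.50 (adjusted p = 0.0658). Over 14 settings the difference ran from -1.11 to -0.36. The second Col8a2 probe, at chr4:125991441-125991500, measured -1.98, -2.03 and -1.57 against -1.76, -1.81 and -4.40. The groups overlapped there, and the difference of -0.80 (interval -2.53 to 0.94, adjusted p = 0.556) was 0.08 without VND3207 mouse 3.

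VND3207 mouse 3 differed from the mean of the other VND3207 mice by -2.62 log2 units for that second probe, the lowest such gap of a kept collagen probe, followed by Col8a1 at -1.41 and Col5a3 at -1.32. Smooth muscle markers differed by -2.46 to -1.86 in the same mouse, and their part in the Col8a2 value was not tested. In the called Col8a2 probe the same mouse was the highest of its group. Col8a1, near background, differed by -0.07 (interval -1.22 to 1.08, adjusted p = 0.947), by 0.40 without VND3207 mouse 3 and by 0.43 with quantile normalization, so that its direction was not settled.

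Col25a1, a transmembrane collagen known from neurons, had 4 probes, of which 1 was kept. It measured -3.55, -3.40 and -3.20 in vehicle mice and -5.66, -5.87 and -4.60 in VND3207 mice (chr3:130270497-130270556, plus strand). No VND3207 array was well above background, so for the report's setting the change is given as at least 2.77-fold lower. That sets the vehicle mean of -3.38 against a floor of -4.85. The floor is the mean over the VND3207 arrays of the lowest signal of any probe well above background on that array or, where higher, the probe's own. The measured VND3207 mean was -5.38. The bound, 1.47 log2 units, did not hold in every setting. The difference was -1.22 after the correction and -0.55 with another background correction (normexp), both smaller falls than the bound. The adjusted p of limma was 0.0117, or 0.0722 after the correction and 0.0501 without vehicle mouse 2. The filter kept this probe through the vehicle arrays alone, so these p-values do not stand as support for a difference. The 3 other probes of the gene were not above background on any array. Of 6 glial and neuronal markers the glial Gfap (-1.34, adjusted p = 0.0136) and Sox10 (-0.51, adjusted p = 0.0266) were lower. Gfap passed in 10 of 14 settings and Sox10 in 4. The neuronal Elavl4 (0.16) and Uchl1 (0.04) were the 2 of the 6 above 0, and neither passed. The part of these markers in the Col25a1 result was not tested.

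Col7a1, the anchoring fibril chain that fixes epithelium to stroma, measured -0.52, -0.22 and -0.19 in vehicle mice and -0.88, -0.62 and -0.52 in VND3207 mice, groups that met near -0.52 without overlapping. The difference was -0.36 (interval -0.72 to 0.00, adjusted p = 0.187). The kept Col23a1 probes, of a transmembrane chain, differed by 0.18 (adjusted p = 0.678) and -0.31 (adjusted p = 0.472). Over the 22 kept probes of these other families, 10 differences were above 0 and 4 (18.2%) were lower at the threshold, beside 14.4% of all kept probes. Of all 41 kept probes, 8 had every VND3207 mouse below every vehicle mouse (24.6% of all kept probes) and 1 the reverse (9.36%).

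The genes with a called probe had 10 further probes, of which 8 were never above background and 2 were kept, and none of these 2 was called. The called probes thus have no second probe that passed. The 60-base sequences of the 5 collagen probes with the most glycine codons in a regular repeat (4 positions or more) are shown as the files give them, whether called or not. Capitals mark GG with the following base where it recurs every ninth base in the best register, as codons for glycine do in a triple helix.
Col15a1 (lower): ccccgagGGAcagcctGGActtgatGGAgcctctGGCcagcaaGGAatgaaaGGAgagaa
Col25a1 (lower): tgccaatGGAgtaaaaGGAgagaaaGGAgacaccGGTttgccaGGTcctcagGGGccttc
Col14a1 (not called): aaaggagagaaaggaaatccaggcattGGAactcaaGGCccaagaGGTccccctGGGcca
Col16a1 (not kept): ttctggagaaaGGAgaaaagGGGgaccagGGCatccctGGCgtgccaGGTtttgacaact
Col13a1 (not kept): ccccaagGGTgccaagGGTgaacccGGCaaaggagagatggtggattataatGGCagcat
The Col15a1 and Col25a1 probes hold it at 6 of 6 positions, the Col16a1 probe at 5 of 7, the dimmer Col14a1 probe at 4 of 7 and the Col13a1 probe at 4 of 6. The other 4 called probes hold it at 1 to 3 positions. A repeat along the whole probe was found in 2 of 63 collagen probes (3.17%) and in 6 of all 55681 (0.0108%). Probe positions are those of mm9 given in the files, for which no exon annotation was used here.

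The counts over the dimmer collagens depended on the setting. Of the 28 dimmer probes 9 were above 0 (32.1%, beside 36.1% of all dimmer probes), with a median of -0.20. With quantile normalization 14 were above 0 and the median was 0.02, after the correction 16 and 0.06, and without VND3207 mouse 3 14 and -0.01. The count of collagen probes called lower was 5 with quantile normalization (8.94% of all kept probes then lower, 2.38% higher), 2 after the correction and 6 without VND3207 mouse 3, the same 6 probes.

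Genes that make, partner or remove collagen were followed from 7 lists of 93 entries, each gene by its brightest probe. Of 87 kept, 54 differences were above 0, beside 11276 of 26024 over the brightest probe of every gene name. Among the 87, 1 gene was higher and 4 were lower (4.60%), beside 13.9% lower and 0.903% higher over those brightest probes. The median was 0.08, beside -0.05.

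In hydroxylation, folding and secretion 20 of 21 were kept and 1 was lower. P4ha3, a catalytic subunit of prolyl 4-hydroxylase, measured -1.04, -0.87 and -1.50 in vehicle mice and -2.90, -2.84 and -2.67 in VND3207 mice. It fell by 1.67 (SE 0.18, adjusted p = 0.00334) and passed in all 14 settings. Its relative P4ha1 differed by -0.33 (adjusted p = 0.544), or -0.05 without VND3207 mouse 3, the lysyl hydroxylase Plod2 by -0.24 (adjusted p = 0.366) and Serpinh1, the collagen chaperone, by 0.08 (adjusted p = 0.839). Without VND3207 mouse 3 the last 2 were -0.12 and 0.23.

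In processing and cross-linking 10 of 13 were kept and 1 was lower. Tll1, a relative of the protease that trims procollagen, measured -1.58, -1.40 and -1.78 against -2.67, -2.63 and -2.24, and fell by 0.93 (SE 0.17, adjusted p = 0.0143, or 0.0737 after the correction). Lox, the cross-linking lysyl oxidase, was well above background on 1 array and was not kept.

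Among 9 fibril partners 1 was lower. Bgn, the proteoglycan biglycan, measured 0.82, 1.33 and 1.37 against -0.31, 0.15 and 0.40. It fell by 1.09 (SE 0.24, adjusted p = 0.0278, or 0.0661 after the correction). Dcn, the related decorin, differed by 0.11 (adjusted p = 0.881) and Sparc, a collagen-binding secreted protein, by 0.05 (adjusted p = 0.902). VND3207 mouse 3 was the lowest animal for both, and without it the differences were 0.43 for Dcn (adjusted p = 0.339) and 0.21 for Sparc (adjusted p = 0.528).

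Of 14 degradation genes 12 were kept, with 1 higher and 1 lower. Mmp3, the protease stromelysin-1, measured -2.22, -2.41 and -2.30 in vehicle mice and -1.44, -1.75 and -1.80 in VND3207 mice. It rose by 0.65 (SE 0.13, adjusted p = 0.0234) and by 0.99 after the correction (adjusted p = 0.0172), and passed in 9 of 14 settings. Timp4, a protease inhibitor, measured -3.55, -3.38 and -3.84 against -4.55, -5.29 and -6.05, was well above background on 1 VND3207 array and fell by 1.71 (SE 0.38, adjusted p = 0.0291). It passed in 6 of 14 settings, and after the correction the difference was -0.95 (adjusted p = 0.178). Mmp2, a gelatinase, differed by 0.52 with groups that did not overlap (adjusted p = 0.112).

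None of the 14 basement membrane partners (laminins, nidogens, perlecan and agrin), 10 collagen receptors or 14 genes of TGF-beta signalling passed the test of limma. At an unadjusted p under 0.05, Lama3 was lower and Lamb1 higher among the first, none among the receptors and Smad2 and Thbs1 higher among the last. The medians were 0.07, 0.02 and 0.26, with 12 of the 14 TGF-beta genes above 0. Ddr2, a collagen receptor kinase, differed by -0.16 (adjusted p = 0.754), or by 0.12 without VND3207 mouse 3 (adjusted p = 0.665), and Tgfb1, the ligand known to raise collagen transcription, by -0.02 (adjusted p = 0.964).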

How the data were processed

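The labels gave each mouse its group, dose and times. The deposited scanner files hold intensity values, the processed Cy3 signal of each spot, which per the file headers is detrended and background-subtracted. The software was Agilent Feature Extraction, version 10.7.1.1, per the submitters' processing notes. The deposited value table of log2 values, whose columns share a median of 6.05, served as an alternative, and how the authors made it is not given in the sources used here. Its scale matches log2 signal (r from 0.997 to 1.000 with the same array) and its normalization is unknown.

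Control spots and spots marked as outliers were left out, log2 signals were reduced by the array's 75th percentile over non-control spots, and spots of a probe were averaged. Probes well above background on at least 3 of 6 arrays were tested with limma 3.58.1 in R 4.3.3 (lmFit, eBayes, 2-sided, with treatment group alone in the model), with Benjamini-Hochberg adjustment over 36091 probes and a threshold of 0.05. Errors marked SE are limma's moderated standard errors, and intervals are 95% intervals of that fit. The number of arrays limits the precision. The fit was tested on simulated data. The correction used mgcv 1.9.3 and figures matplotlib. Of the value columns, 0 were without a sample.

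Members and gene lists were chosen with earlier results of these data known. Named were probes past the threshold, probes with a mean above the 75th percentile, the 3 largest differences of each group among probes well above background on all 6 arrays, genes whose probes differed by over 1 (there were none), pathway genes past the threshold and 9 fixed pathway genes. Further genes in the text were named after their values were seen. Col6a3, Col6a5, Col21a1 and Col26a1 were not matched under these names and are not analysed here. Alternatives were other normalization, background correction, filters, probe choice, variance models, the replicate number as a block, other thresholds and each mouse left out. The replicate numbers did not pair the samples, and no block was used in the values of the report.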

Additional observations from a re-analysis of the deposited data

How the results depend on the processing

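Without a replicate, the count of collagen probes called lower ran from 4 to 6 (main 6), the median difference over collagens from -0.07 to 0.08, and the counts over all kept probes from 136 to 288 higher (main 327) and from 2958 to 5028 lower (main 5198). Collagens called lower were 3 with normexp background correction, 2 with the filter on all 6 arrays and 2 after the correction for position, brightness and GC content. With no filter 1 collagen probe was called higher, a Col15a1 probe not above background on any array. Over all kept probes the calls higher and lower were 860 and 3227 with quantile normalization, 919 and 3174 with the deposited table and 966 and 2208 after the correction, so the share of calls that were higher was 5.92% in the report's setting and 21.0%, 22.5% and 30.4% in these. Lower calls were 2742 with normexp and 2887 with the filter on all 6 arrays. Higher calls were 670 with no filter, 212 with the mean of a gene's probes, 51 (2525 lower) at a threshold of 0.01 and 795 at 0.1. The median over the other collagens was 0.15 with quantile normalization, 0.16 with the deposited table, 0.14 with no filter and 0.15 after the correction. The cause of these shifts was not tested. No value turned its direction past the threshold. Leaving out all probes kept through 1 group only (1 of them a collagen probe), a setting chosen after seeing the data, left 5 of 40 collagen probes lower. Over all features 3527 of 33647 probes were then lower and 320 higher.

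With the replicate number as a block, 5 collagen probes were lower, all but Col15a1 of the same 6, with 139 higher and 3437 lower over all kept probes. Deviations of same-numbered mice correlated at 0.13, -0.11 and -0.05, so the numbers were not taken as pairs.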
